A study of Mus musculus with 8 samples.

Results

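The receptors through which retinal neurons sense glutamate, GABA and glycine were followed in the retina of the C57BL/6J mouse over 14 days in 75% oxygen. Genes were taken by symbol, from probe sets annotated to 1 gene only, as the subunits of AMPA (*Gria*), kainate (*Grik*) and NMDA (*Grin*) receptors, the metabotropic glutamate receptors (*Grm*), the GABA-A, rho and GABA-B subunits (*Gabra*, *Gabrb*, *Gabrg*, *Gabrd*, *Gabrr* and *Gabbr*) and the glycine receptor subunits (*Glra* and *Glrb*). *Grik1* and 1 metabotropic receptor gene were set aside by the rule. This gave 38 genes, measured by 80 probe sets, of 18193 genes measured by 34945 probe sets. Of the 38, 20 encode glutamate receptors, 13 GABA receptors and 5 glycine receptors. A probe set is a group of short probes that lie mostly near the 3' end of a transcript, and the value of a gene is the mean of its probe sets. A single probe set measures 14 of the genes, and 2 to 5 probe sets measure the other 24. Subunits that are not named here were not analysed here.

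RNA was taken from whole retinas of wild-type adult mice (80 to 120 days old), reared in dim light of 5 lux for 12 h a day. The control mice breathed normal air (day 0) and the others lived in a chamber at 75% oxygen until day 3, day 7 or day 14, with 2 arrays at each time. For each time the study pooled retinas of several animals of both sexes, and separate pools for the 2 arrays are not stated, so p-values cover the spread between arrays, which may be technical. The arrays of a time are called the first and the second after the replicate number on their labels. Each value is a log2 value from which the median of that probe set over the 8 arrays has been taken away, so it gives a difference between arrays and no level. For that reason neither the presence of a receptor nor the markers of the labelled tissue could be checked by their level.

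Photoreceptors and bipolar cells release glutamate, and amacrine cells release GABA or glycine onto bipolar cells and ganglion cells. AMPA, kainate and NMDA receptors are glutamate-gated cation channels, whereas metabotropic receptors act through G proteins. GABA-A, rho and glycine receptors are chloride channels built of several subunits, and GABA-B receptors act through G proteins. In the retina, OFF bipolar cells use AMPA and kainate receptors, and rho receptors are best known from the terminals of bipolar cells.

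The results turn most on the AMPA subunit *Gria2*, the GABA-A subunit *Gabrb2* and the kainate subunit *Grik4*, the first pair with the lowest day 14 differences from control and the last with the smallest p at day 14. The 250 bases before their RefSeq start (GRCm38.p6, the first of 3 starts for *Gabrb2*) are shown so that a reader can see what stands upstream of them. *Gria2* lies on the minus strand at chr3:80802836-80803085, *Grik4* on the minus strand at chr9:42944372-42944621 and *Gabrb2* on the plus strand at chr11:42420190-42420439. All are written 5' to 3' on the strand of the gene, and the capitals mark a match to the core of RE1, the site of the neuronal repressor REST, here on the opposite strand.
*Gria2*: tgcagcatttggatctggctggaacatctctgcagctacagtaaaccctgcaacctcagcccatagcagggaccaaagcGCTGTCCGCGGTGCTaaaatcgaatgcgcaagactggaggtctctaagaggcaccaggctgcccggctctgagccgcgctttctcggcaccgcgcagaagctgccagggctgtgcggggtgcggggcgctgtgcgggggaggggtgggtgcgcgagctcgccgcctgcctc
*Gabrb2*: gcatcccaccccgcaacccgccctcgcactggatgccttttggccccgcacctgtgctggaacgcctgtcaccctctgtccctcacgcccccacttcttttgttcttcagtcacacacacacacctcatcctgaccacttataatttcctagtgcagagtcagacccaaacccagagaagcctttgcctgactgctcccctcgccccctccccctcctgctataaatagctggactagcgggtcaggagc
*Grik4*: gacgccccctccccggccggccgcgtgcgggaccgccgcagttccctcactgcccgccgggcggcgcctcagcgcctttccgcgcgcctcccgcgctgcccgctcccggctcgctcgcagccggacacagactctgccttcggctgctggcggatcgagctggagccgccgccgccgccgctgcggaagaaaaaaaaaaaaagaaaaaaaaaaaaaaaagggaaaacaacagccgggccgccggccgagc
Of the 38 genes, 29 had a promoter entry, and they had 36 promoters of 250 bases before to 50 after the start. The RE1 core (AGCACC and GGACAGC, 2 bases apart, either strand) was in 1 of these, that of *Gria2*, with its centre 164 bases before the start, and in 10 of all 32851 promoters (0.0304%). Its right part alone (GGACAGC) was in the promoters of *Gria2*, *Glra2*, *Glrb* and *Grm2* and in 6.56% of all promoters, and its left part alone (AGCACC) in those of *Gria2*, *Gabrb1*, *Gabrg3* and *Grm2* and in 16.2%, counts that include the core. The core of the hypoxia response element, to which the oxygen-regulated factor HIF binds (ACGTG, either strand), was in 5 of the 36 promoters, those of *Gabrb1*, *Gabrb2*, *Glra2* and *Grm8*, and in 19.6% of all. In these 36 promoters 0 had a base shared between a match to it and a match to RE1 or one of its parts. The median GC content was 58.8% over the promoters of the receptor genes and 52.7% over all promoters. A match is only a run of letters, and binding was not measured.

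The second arrays of day 3 and day 14 stood apart from the other 6 and touch many of the values that follow. The 3' minus 5' difference of *Gapdh*, a measure of RNA quality, was 1.19 and 1.43 on them and -0.32 to 0.12 elsewhere. *Gfap*, an intermediate filament that stressed Muller cells make, stood at 2.56 and 2.18 on them and at -1.09 to 0.36 elsewhere. It does not stand for the Muller and astrocyte markers (8 of 8 measured), to which it belongs. Their median was -0.28 and -0.35 on these arrays and -0.27 to 0.21 elsewhere. The quality table of the study places high *Gapdh* ratios on both day 14 arrays and on neither day 3 array, and describes day 3 and day 14 replicates as clustering by time. The deposited values as labelled do not have that order, so the day on 1 or more labels of day 3 and day 14 is in doubt, and all day 3 and day 14 means given here hold only if the labels do. Arrays were kept under their labels, and values on each array are printed for that reason. The median of the microglia and macrophage markers (10 of 10 measured) was 1.44 and 1.42 there and -0.27 to 0.31 elsewhere, and that of the bipolar cell markers (8 of 9 measured) was -0.46 and -0.52 against -0.12 to 0.25. Cone markers (6 of 6) stood at -0.50 and -0.32, against -0.02 to 0.03 elsewhere, and amacrine markers (9 of 9) at -0.06 and -0.02, within the -0.16 to 0.53 of the others. Ganglion cell markers (8 of 9) stood at 0.19 and -0.04, within the -0.23 to 0.22 of the others. Horizontal cell markers (5 of 5) stood at 0.02 and -0.03, within the -0.13 to 0.12 of the others. Rod markers (7 of 8) were at -0.36 and -0.35, and at -0.42 on the first day 3 array. Lens markers (9 of 9), from a tissue next to the retina, ranged from -4.02 on the first day 3 array to 3.49 on the second day 7 array. Corneal epithelium markers (6 of 6) stood at 0.86 and 2.04 in control, at -1.41 and -1.12 on the day 3 arrays, at 1.54 on the first day 14 array and at -0.61 to 0.0029 on the other 3. Retinal pigment epithelium markers (6 of 6) were highest on the second day 7 array (0.84) and the first day 14 array (0.67), and at -0.59 to 0.11 elsewhere. The part of RNA quality and of these cell types in the receptor values was not tested.

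No receptor gene differed from control past an adjusted p of 0.05 in limma. The count was 0 of 38 at day 3, day 7 and day 14 and in the F test over the 4 times, as it was for all 18193 genes (0%). At an unadjusted p under 0.05, *Glra3*, *Grin3b* and *Gabrg1* were higher at day 3 (3 of 38, where 11% of all genes passed, 6.38% higher and 4.61% lower). None was past it at day 7 (0.797% of all genes). At day 14 *Grik4* was higher and *Gabrr2* lower (2 of 38, where 8.01% of all genes passed, 4.45% higher and 3.56% lower). The F test had 2 (*Grik4* and *Gabrg1*), against 8.99% of all genes. With a plain one-way analysis of variance, 1 gene passed an unadjusted p of 0.05 at day 3 (7.17% of all genes), 1 at day 7 (2.89%) and 2 at day 14 (7.23%). The methods name an analysis of variance with a cross-gene error model, which was not fitted here. Without the second arrays of day 3 and day 14 together, 11 of 38 were past an unadjusted p of 0.05 in limma at day 3 (21.1% of all genes) and 1 at day 14 (4.15%).

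Most receptor genes stood near control. The median difference over the 38 genes was 0.08 at day 3 (0.06 over all genes), -0.0038 at day 7 (-0.0065) and 0.03 at day 14 (0.08). Single genes ranged from -0.41 to 0.59 at day 3, from -0.23 to 0.42 at day 7 and from -0.96 to 0.37 at day 14, so that none reached a difference of 1, which is 2-fold. The means of 27, 17 and 21 genes were higher than control at day 3, day 7 and day 14, where 59.2%, 48.1% and 64% of all genes were. Both arrays lay above both control arrays for 10 genes at day 3 (28.2% of all genes), 2 at day 7 (12.1%) and 4 at day 14 (33.5%), and below both for 3 (16.1%), 4 (13.1%) and 8 (15.2%). Thus 13, 6 and 12 genes had no overlap with control, where 44.3%, 25.3% and 48.7% of all genes had none. By transmitter, 10 of 13 GABA, 12 of 20 glutamate and 5 of 5 glycine receptor genes were higher at day 3. These counts were 6, 6 and 5 at day 7 and 7, 10 and 4 at day 14. In whole retina, fewer cells of a type and less RNA in each cell cannot be told apart.

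**Figure D1:**
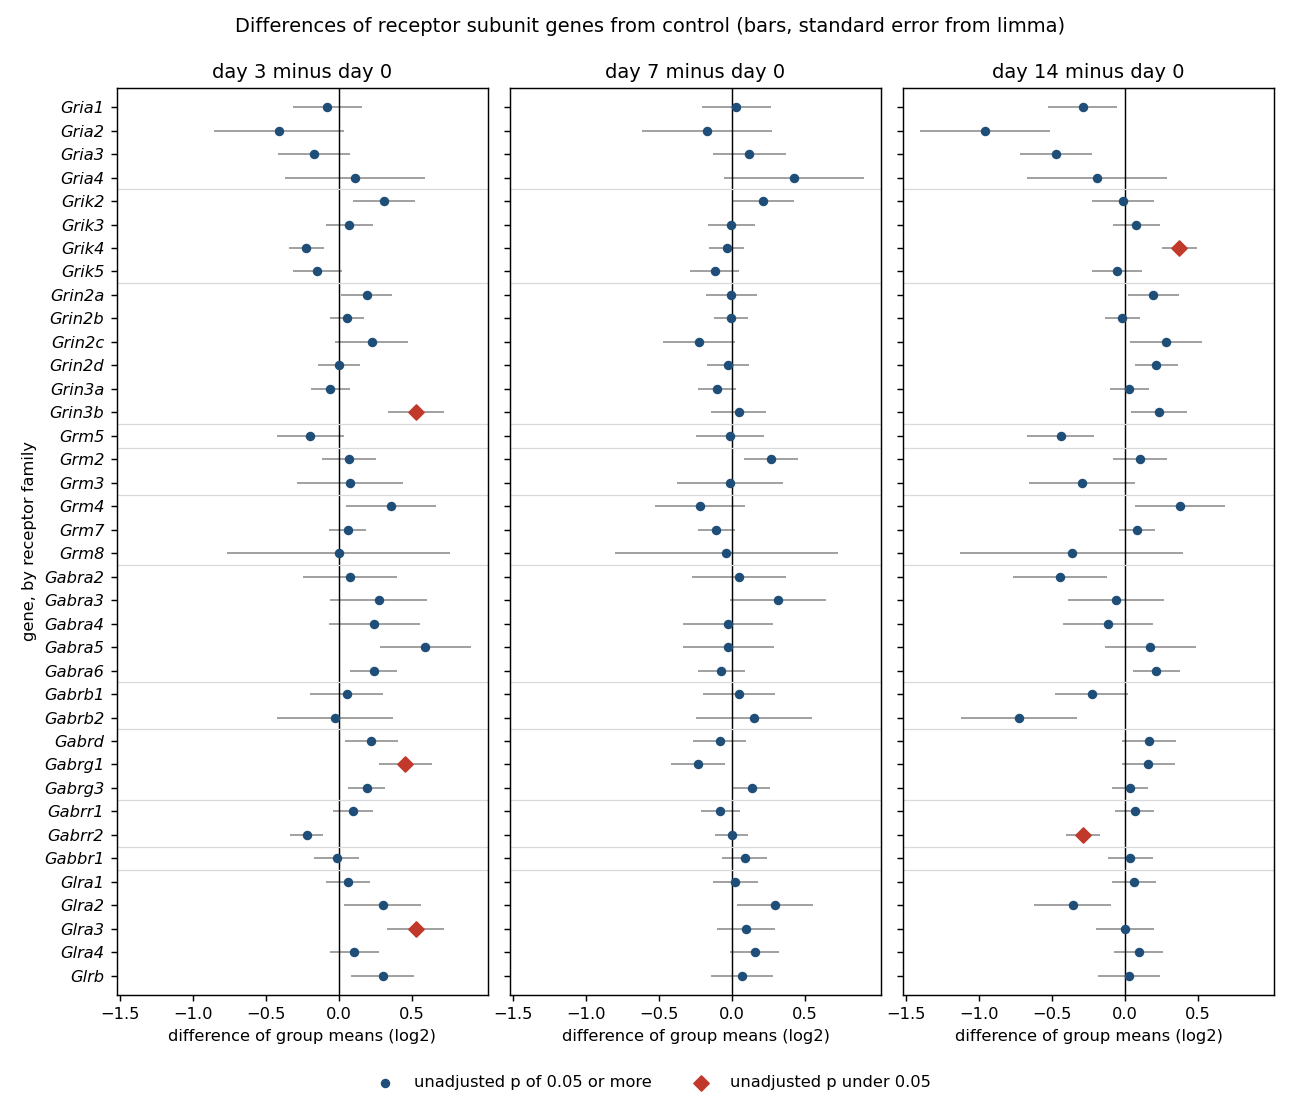
Difference of each receptor gene from control (log2, horizontal axis) at day 3, day 7 and day 14, by gene and receptor family (vertical axis), with bars for the standard error from limma (2 arrays per time) and red diamonds for an unadjusted p under 0.05. *Gria2* at day 14 lies farthest from 0, at -0.96, and none of the points passed an adjusted p of 0.05.

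The AMPA subunits, which carry most of the fast glutamate signal, were lower than control at day 14 in all 4 genes, though *Gria4* was at 0.11 after a further quantile normalization. At day 14 both arrays of *Gria1*, *Gria2* and *Gria3* lay below both control arrays, as for 15.2% of all genes. The mean was higher than control for 64% of all genes at that time. The median of the 4 was -0.12 at day 3, 0.08 at day 7 and -0.38 at day 14, and 0 passed an unadjusted p of 0.05 at any of these times. By array the family median was -0.32 and -0.62 on the second arrays of day 3 and day 14, -0.14 on the other day 14 array and 0.34 on the other day 3 array, and -0.04 to 0.30 at day 0 and day 7.

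*Gria2*, the subunit that keeps calcium out of the channel, had the largest difference of any receptor gene. Its control arrays stood at 0.15 and 0.29 (the first array before the second, as in all that follows), those of day 3 at 0.47 and -0.85, those of day 7 at 0.18 and -0.07 and those of day 14 at -0.29 and -1.19. The day 14 arrays thus lay below all control and day 7 arrays, and the day 3 arrays lay on either side of control. The difference from control was -0.96 ± 0.44 at day 14 (standard error from limma, adjusted p = 0.627), -0.41 ± 0.44 at day 3 and -0.17 ± 0.44 at day 7. Without the second day 14 array the day 14 difference was -0.51, and without the first it was -1.41. Without the second day 3 array the day 3 difference was 0.25.

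*Gria3*, another AMPA subunit, stood at -0.05 and 0.29 in control, 0.21 and -0.31 at day 3, 0.06 and 0.42 at day 7, and then -0.14 and -0.56 at day 14. Its arrays of day 14 were both below control, by -0.47 ± 0.25 on average (limma, adjusted p = 0.632), and the other times overlapped control. Between day 14 and day 7 it differed by -0.59 (limma, adjusted p = 0.431). *Gria4*, which also forms AMPA channels, stood at -0.38 and 0.32 in control, 0.50 and -0.33 at day 3, -0.13 and 0.92 at day 7, with 0.24 and -0.67 at day 14. Its arrays of one time stood far apart and overlapped control throughout, with differences of 0.11, 0.42 and -0.19 (standard error 0.48). *Gria1*, named for completeness after its values were seen, had -0.29 at day 14, with arrays at -0.14 and -0.33 against -0.03 and 0.14 in control.

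**Figure D2:**
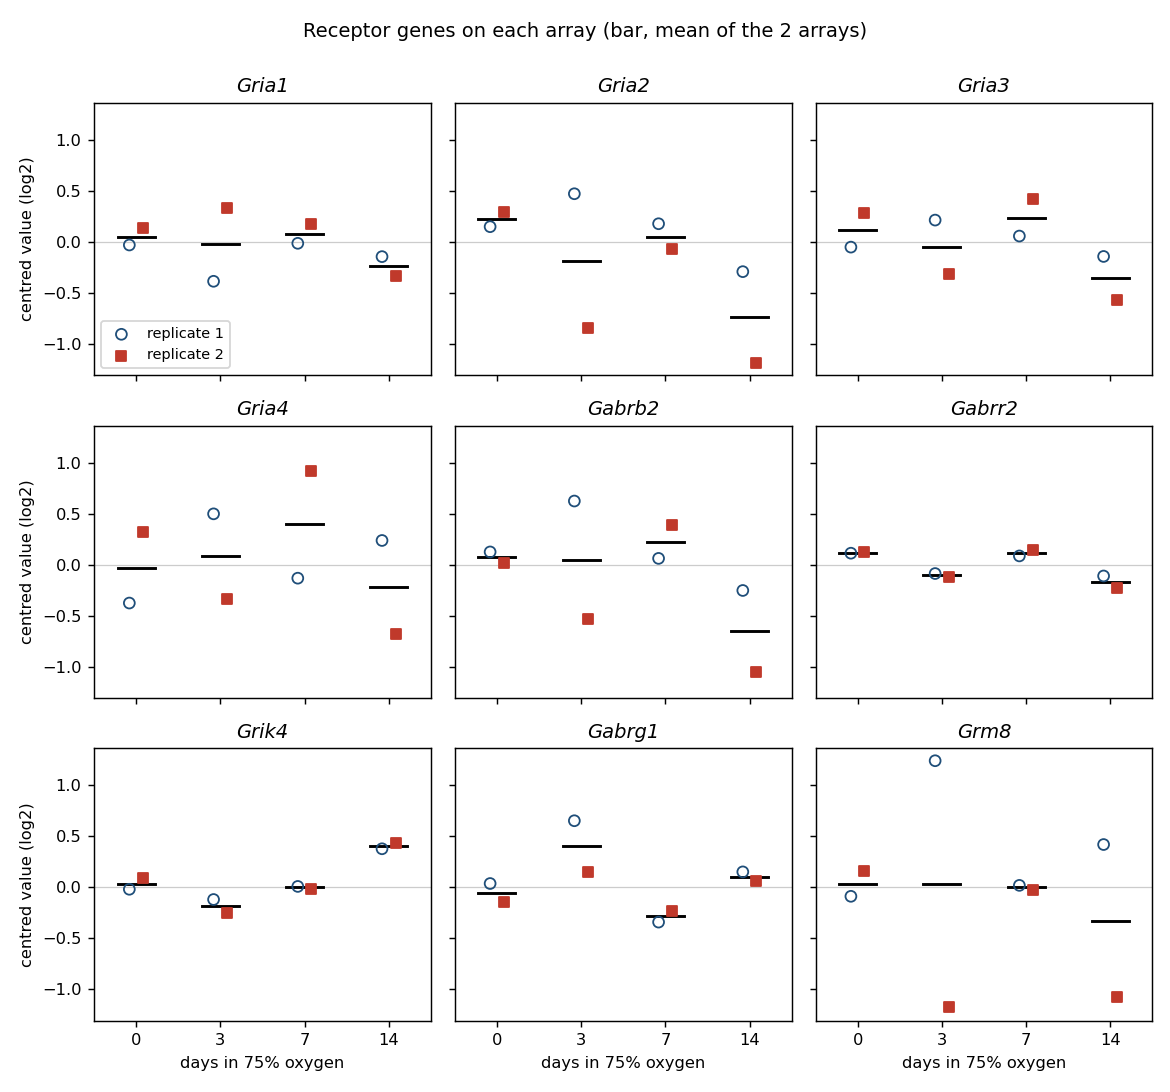
Centred log2 value (vertical axis) of 9 receptor genes on each array by days in 75% oxygen (horizontal axis), with open circles for replicate 1, filled squares for replicate 2 and bars for the mean of the 2 arrays. The squares of *Gria2*, *Gabrb2* and *Grm8* at day 3 and day 14 lie far below the circles (for *Gria2* -0.85 against 0.47 at day 3), whereas both arrays of *Grik4* at day 14 lie above the rest, at 0.38 and 0.44.

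Among the kainate subunits, *Grik4*, a high-affinity subunit that needs partners such as *Grik2* to form a channel, had the smallest p of the receptor genes at day 14. Control arrays stood at -0.02 and 0.09, day 3 arrays at -0.12 and -0.26, day 7 arrays at 0.01 and -0.01 and day 14 arrays at 0.38 and 0.44. Day 14 was above and day 3 below all 4 arrays of control and day 7. The day 14 difference was 0.37 ± 0.12 (limma, adjusted p = 0.614) and the day 3 difference -0.22 ± 0.12 (adjusted p = 0.508). *Grik4* is measured by 1 probe set. Of the other 3, *Grik2* had both arrays above control at day 3 and day 7 (0.31 and 0.22), *Grik5* had both below at these times (-0.15 and -0.12), and *Grik3* overlapped control throughout. The 4 kainate genes had medians of -0.04, -0.02 and 0.03 at day 3, day 7 and day 14.

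The 6 NMDA receptor genes were mostly above control at day 3 (5 of 6, median 0.12) and at day 14 (5 of 6, median 0.21) and mostly below at day 7 (5 of 6, median -0.02). With each array's median subtracted these counts were 4, 5 and 4, and after a further quantile normalization 5, 4 and 4. At day 3, day 7 and day 14, 59.2%, 48.1% and 64% of all genes were higher than control. The family median was -0.0021 on the first and 0.18 on the second day 14 array, against -0.01 and -0.03 in control. On the first day 14 array *Grin2c*, *Grin3a* and *Grin3b* lay below the mean of their control arrays. *Grin3b*, a glycine-binding subunit that lowers calcium entry, stood at -0.07 and -0.06 in control, 0.32 and 0.60 at day 3, -0.11 and 0.06 at day 7, followed by -0.08 and 0.41 at day 14. Both day 3 arrays lay above all control and day 7 arrays, by 0.53 ± 0.19 over control (limma, adjusted p = 0.427). At day 14 its difference of 0.23 became -0.01 without the second day 14 array. *Grin2c*, a subunit typical of mature circuits and of some glia, stood at -0.23 and 0.19 in control, 0.07 and 0.34 at day 3, -0.32 and -0.17 at day 7, and then -0.07 and 0.59 at day 14. It overlapped control at every time, with a day 14 difference of 0.28 that was -0.05 without that array. *Grin2a*, *Grin2b*, *Grin2d* and *Grin3a*, the remaining subunits measured, differed from control by -0.10 to 0.22 at any time.

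Among metabotropic receptors, *Grm5*, which couples to calcium release, and *Grm3* and *Grm8*, which lower cyclic AMP, had their lowest values on the second arrays of day 3 and day 14. *Grm5* stood at 0.20 and -0.01 in control, 0.01 and -0.21 at day 3, 0.32 and -0.16 at day 7, with -0.08 and -0.61 at day 14. Only its day 14 arrays lay both below control, by -0.44 ± 0.23 (limma, adjusted p = 0.632). *Grm8*, an autoreceptor of photoreceptor terminals, had the widest range of any receptor gene, 2.41, and is named after its values were seen. It stood at -0.09 and 0.16 in control, 1.24 and -1.17 at day 3, 0.02 and -0.02 at day 7, followed by 0.42 and -1.07 at day 14. The arrays of day 3 and of day 14 lay on opposite sides of control, so the differences of their means (-0.0016 and -0.36, standard error 0.76) say little, and the second was 0.03 after a further quantile normalization.

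*Grm4*, a presynaptic receptor that dampens release, went the other way on the same arrays. It stood at 0.06 and -0.05 in control, -0.02 and 0.74 at day 3, -0.08 and -0.35 at day 7, and then 0.02 and 0.73 at day 14. Its day 7 arrays were below control, by -0.22 ± 0.31, and those of day 3 (0.36) and day 14 (0.37) were high on the second array only. *Grm2*, a presynaptic receptor known from starburst amacrine cells, stood at -0.16 and 0.03 in control, -0.10 and 0.11 at day 3, -0.04 and 0.44 at day 7, with -0.03 and 0.10 at day 14. It overlapped control at each time, with its highest value on the second day 7 array (day 7 difference 0.27 ± 0.19). *Grm7* and *Grm3* had differences from -0.29 to 0.08 and also overlapped control.

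The GABA-A alpha subunits, which form the GABA site together with beta subunits, were higher than control at day 3 in 5 of 5 genes (59.2% of all genes), with a median of 0.24, and in 4 of 5 after a further quantile normalization, where *Gabra2* was at -0.0039. The count rests on the first day 3 array, with a family median of 0.63, against -0.05 on the second and -0.11 and 0.01 in control. On the second day 3 array *Gabra2*, *Gabra3* and *Gabra4* lay below the mean of their control arrays. Both arrays were above control for 1 of them, *Gabra6* (0.24). *Gabra5*, often found outside synapses, stood at 0.14 and -0.46 in control, 0.78 and 0.09 at day 3, -0.09 and -0.27 at day 7, followed by -0.27 and 0.30 at day 14. Its day 3 difference, 0.59 ± 0.31, was the highest of any receptor gene at that time, but the lower day 3 array lay within the control range (limma, adjusted p = 0.497). *Gabra3*, known from inhibitory synapses of the retina, stood at -0.28 and 0.22 in control, 0.53 and -0.05 at day 3, -0.11 and 0.68 at day 7, and then 0.12 and -0.31 at day 14. It overlapped control throughout, and its day 7 difference of 0.31 was -0.08 without the second day 7 array. *Gabra2*, known from starburst amacrine cells, stood at -0.11 and 0.47 in control, 0.63 and -0.12 at day 3, -0.06 and 0.51 at day 7, with -0.12 and -0.41 at day 14. At day 14 both arrays lay below control, the higher of them only just, with a difference of -0.44 ± 0.32. *Gabra4*, named after its values were seen, was also below control on both arrays of day 14 (-0.12).

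*Gabrb2*, an abundant beta subunit of GABA-A receptors in brain, had a pattern like that of *Gria2*. It stood at 0.13 and 0.02 in control, 0.62 and -0.53 at day 3, 0.06 and 0.39 at day 7, followed by -0.25 and -1.05 at day 14. Both day 14 arrays lay below all control and day 7 arrays, by -0.72 ± 0.40 from control (limma, adjusted p = 0.638). Without the second day 14 array this was -0.33, and without the first it was -1.12. *Gabrb1*, the other beta subunit, overlapped control at each time and was at -0.23 at day 14, with -0.51 on the second day 14 array.

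Of the gamma and delta subunits (*Gabrg1*, *Gabrg3* and *Gabrd*), both arrays of all 3 genes lay above control at day 3 (28.2% of all genes), with differences of 0.46, 0.19 and 0.22. The lower day 3 array of *Gabrd* stood at 0.02, only just above its higher control array (0.0095). The probe sets of *Gabrd* had 0.37 and 0.08 at day 3. *Gabrg1*, a gamma subunit also known from glia, stood at 0.04 and -0.14 in control, 0.65 and 0.15 at day 3, -0.34 and -0.23 at day 7, and then 0.15 and 0.06 at day 14. Its arrays were above control at day 3 and day 14 and below it at day 7, with no overlap at any time. The differences were 0.46 ± 0.18 at day 3 (limma, adjusted p = 0.446), -0.23 ± 0.18 at day 7 and 0.16 ± 0.18 at day 14. At day 3 it was 0.21 without the first and 0.71 without the second day 3 array (limma, adjusted p = 0.077). Its probe sets disagreed, with 0.10 and 0.81 at day 3 and -0.12 and 0.44 at day 14. It was past an unadjusted p of 0.05 in the F test over the 4 times too (limma, adjusted p = 0.547).

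The rho subunits form the slow GABA channels of bipolar terminals. *Gabrr2* stood at 0.11 and 0.12 in control, -0.09 and -0.12 at day 3, 0.09 and 0.15 at day 7, with -0.11 and -0.23 at day 14. The 4 arrays of control and day 7 lay above the 4 of day 3 and day 14. The difference from control was -0.22 ± 0.12 at day 3 (limma, adjusted p = 0.497), -0.0017 at day 7 and -0.29 ± 0.12 at day 14 (adjusted p = 0.621). It was -0.23 at day 14 without the second day 14 array. *Gabrr1*, the other rho subunit, lies next to *Gabrr2* on chromosome 4 and overlapped control at each time, with 0.10, -0.08 and 0.07. *Gabbr1*, the agonist-binding subunit of GABA-B receptors, had differences of -0.01, 0.09 and 0.04 that hide opposed probe sets, as described further on.

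The 5 glycine receptor genes were higher than control in 5 of 5 at day 3 (median 0.30) and at day 7 (median 0.10), under both of the other scalings too, and in 4 of 5 at day 14 (median 0.03, and 3 of 5 under either other scaling). At these times 59.2%, 48.1% and 64% of all genes were higher. The family median was -0.12 on the first and 0.15 on the second day 7 array, against -0.23 and 0.01 in control. On the first day 7 array *Glra2*, *Glra3* and *Glrb* lay below the mean of their control arrays. Both day 3 arrays of *Glra2*, *Glra3* and *Glrb* lay above both control arrays, as for 28.2% of all genes. The lower day 3 array of *Glrb* stood at -0.05, only just above its higher control array (-0.07). Its probe sets had 0.16 and 0.45 at day 3. *Glra3*, known from glycine synapses of amacrine cells, stood at -0.23 and 0.01 in control, 0.66 and 0.18 at day 3, -0.13 and 0.11 at day 7, followed by -0.01 and -0.20 at day 14. The arrays of day 3 were above all 6 others, by 0.53 ± 0.20 from control (limma, adjusted p = 0.429), and day 14 was at 0.0021 from control. *Glra2*, the subunit best known from development, stood at -0.24 and 0.12 in control, 0.22 and 0.26 at day 3, -0.12 and 0.60 at day 7, and then -0.61 and -0.22 at day 14. Its differences were 0.30, 0.29 and -0.36 (standard error 0.26), and that of day 7 was -0.07 without the second day 7 array. Between day 14 and day 3 *Glra2* differed by -0.66 and *Glra3* by -0.52, both with an adjusted p of 0.983 in limma. *Glrb*, the beta subunit that anchors the receptor at synapses, had 0.30 at day 3, and *Glra1* and *Glra4* lay between 0.02 and 0.16 at all times.

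**Figure D3:**
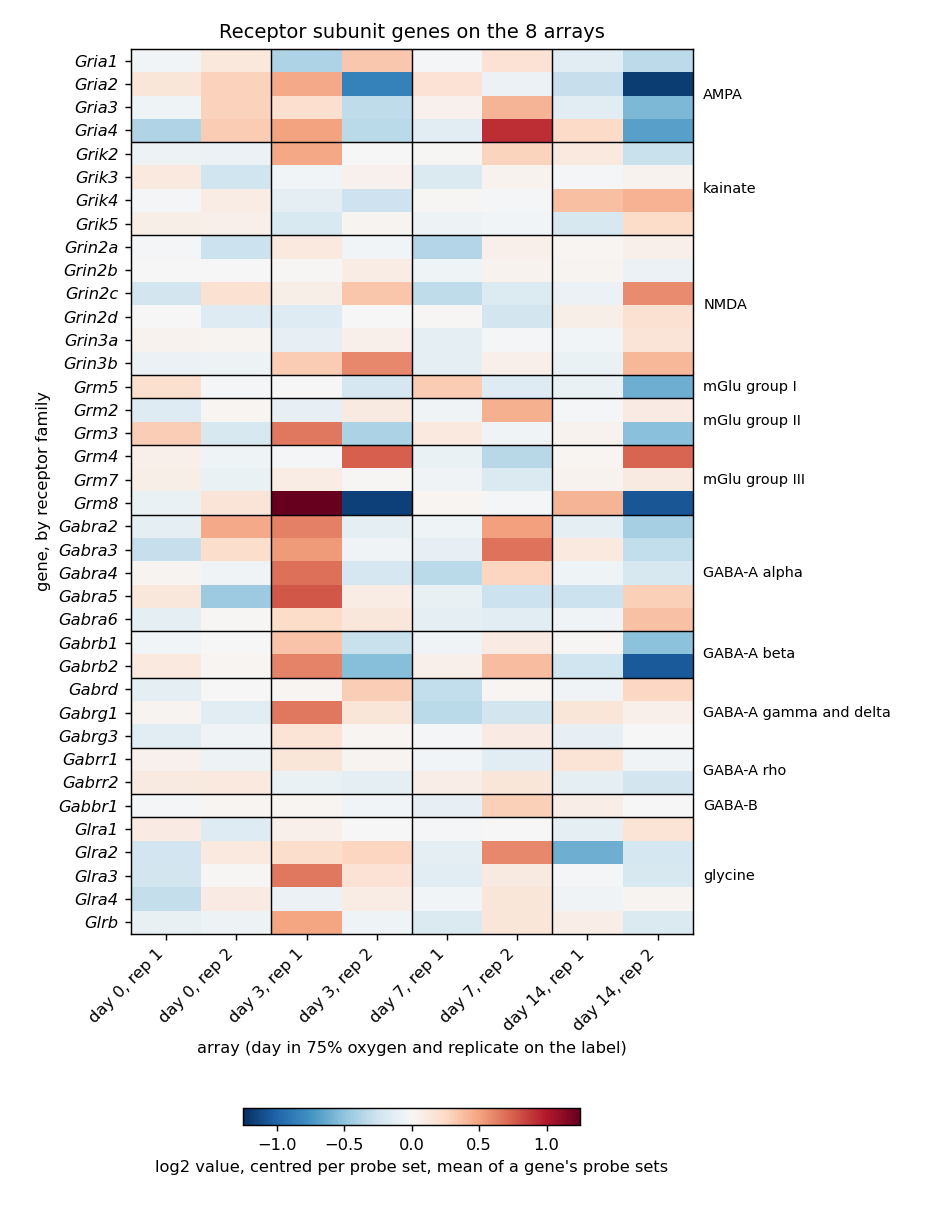
Centred log2 value (colour, white at 0) of the 38 receptor genes (rows, by family) on the 8 arrays (columns, by day and replicate on the label). Among the darkest cells are those of *Gria2* (-1.19), *Gabrb2* (-1.05) and *Grm8* (-1.07) on the second day 14 array, and *Grm8* (1.24) on the first day 3 array.

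The extreme values of many receptor genes fell on the same arrays, which by their labels are of different times. For 9 of 38 genes (*Gria2*, *Gria3*, *Grm3*, *Grm5*, *Grm8*, *Gabra2*, *Gabrb1*, *Gabrb2* and *Gabrr2*, 23.7%) the 2 lowest of the 8 arrays were the second arrays of day 3 and day 14, as for 9.01% of all genes. For 9 genes (*Gria4*, *Grik2*, *Gabra2*, *Gabra3*, *Gabra4*, *Gabrb1*, *Gabrb2*, *Gabrg3* and *Glrb*, 23.7%) the 2 highest were the first day 3 array and the second day 7 array (4.72% of all genes). *Gabrd*, *Grin2c*, *Grin3a*, *Grin3b* and *Grm4* were highest on the second arrays of day 3 and day 14 (5 genes, 13.2%, and 19.5% of all genes). Over the 38 genes the values of these 2 arrays had a Pearson's r of 0.81 (0.69 over all genes), and arrays labelled with the same time had -0.48 at day 0, -0.52 at day 3, -0.04 at day 7 and 0.05 at day 14 (-0.02, -0.02, 0.20 and 0.18 over all genes). These are descriptions that the doubt about the labels touches, since it is open to question which arrays share a time. Centring also ties the arrays to each other and genes are not independent. The SD over the receptor genes was 0.44 on the second day 14 array (0.32 over all genes) and 0.14 to 0.35 on the others. The range of a gene over the 8 arrays had a median of 0.72 for receptor genes and 0.57 for all genes.

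Probe sets of 1 gene can match different parts or forms of its transcript. Of the 24 genes with 2 or more, all probe sets were lower than control at day 14 for 8, all were higher for 2, and 14 had both. The 3 of *Gria2* had day 14 differences of -1.10, -0.71 and -1.07 and correlated with each other across the arrays (median Pearson's r 0.84). This was the highest median r of the 24 genes, and the lowest was -0.43 (*Grin3a*). The median r was also below 0 for *Grm7*, *Glra1*, *Gabbr1* and *Grin2b*, so their means join probe sets that do not move together. The 5 of *Gabrb2* ranged from -1.07 to -0.17 and were all lower. Those of *Gria4* disagreed, at -0.66, -0.24 and 0.33. *Gabbr1*, singled out after its values were seen, was the 1 gene with probe sets opposed by 0.5 or more each way. One of its 4 probe sets had -0.57 and another 0.73 at day 14. On the second day 7 array these stood at 1.91 and -0.90, and on the second day 14 array at -0.88 and 1.06, so the mean near 0 describes neither.

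**Figure D4:**
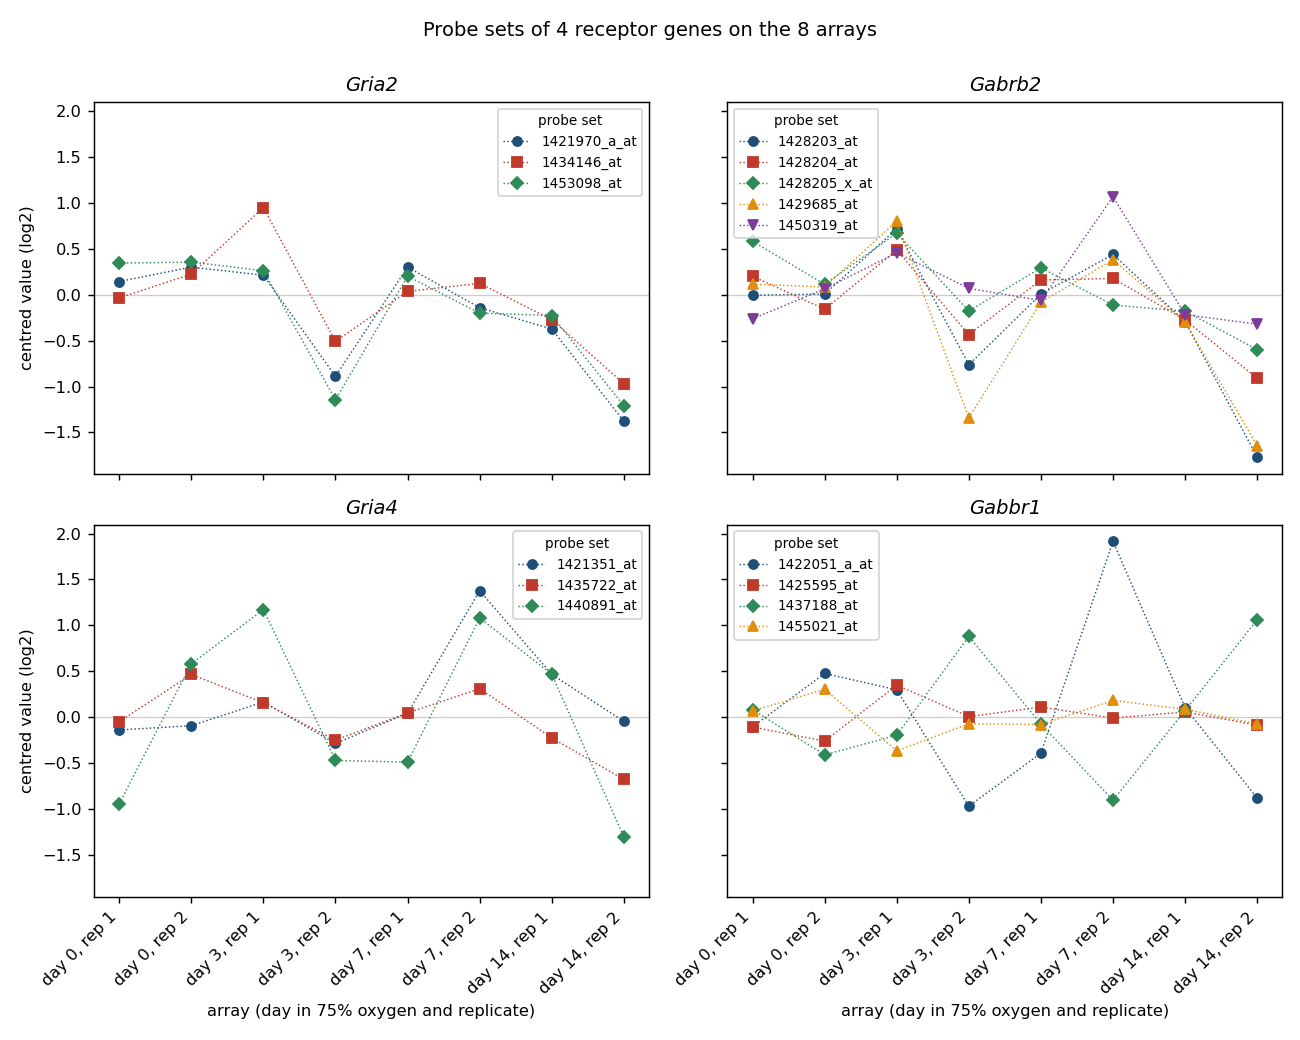
Centred log2 value (vertical axis) of each probe set of *Gria2*, *Gabrb2*, *Gria4* and *Gabbr1* on the 8 arrays (horizontal axis, by day and replicate on the label), with 1 colour and marker per probe set and dotted lines only to guide the eye. The 3 probe sets of *Gria2* move together and are lowest on the second day 14 array (-1.38, -0.97 and -1.21), and 2 probe sets of *Gabbr1* mirror each other.

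Receptor genes are long. By RefSeq (GRCm38.p6) their median length was 183.9 kb, from 6.8 kb (*Grin3b*) to 921.9 kb (*Grm7*), against 20.2 kb over all genes. Over the 38 genes, Spearman's rho of length with the centred value was -0.45 on the second day 3 array and -0.50 on the second day 14 array (-0.17 and -0.25 over all genes), and 0.19 on the other day 14 array (-0.11 over all genes). With the day 14 difference it was -0.42 (-0.26 over all genes). These values describe genes of 1 series that share the arrays, and the part of length in the differences was not tested. Several subunits are neighbours among protein-coding genes, namely *Gabra6* and *Gabrb2* on chromosome 11, *Gria2* and *Glrb* on chromosome 3, *Gabrr1* and *Gabrr2* on chromosome 4, *Gabrg1* and *Gabra2* and also *Gabra4* and *Gabrb1* on chromosome 5, and *Gabrg3* and *Gabra5* on chromosome 7. At day 14 the neighbours differed from control by -0.96 and 0.03 (*Gria2* and *Glrb*), by -0.72 and 0.21 (*Gabrb2* and *Gabra6*), by -0.29 and 0.07 (*Gabrr2* and *Gabrr1*) and by 0.16 and -0.44 (*Gabrg1* and *Gabra2*). *Gabra4* and *Gabrb1* were both lower, at -0.12 and -0.23, and *Gabrg3* and *Gabra5* both higher, at 0.03 and 0.17.

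**Figure D5:**
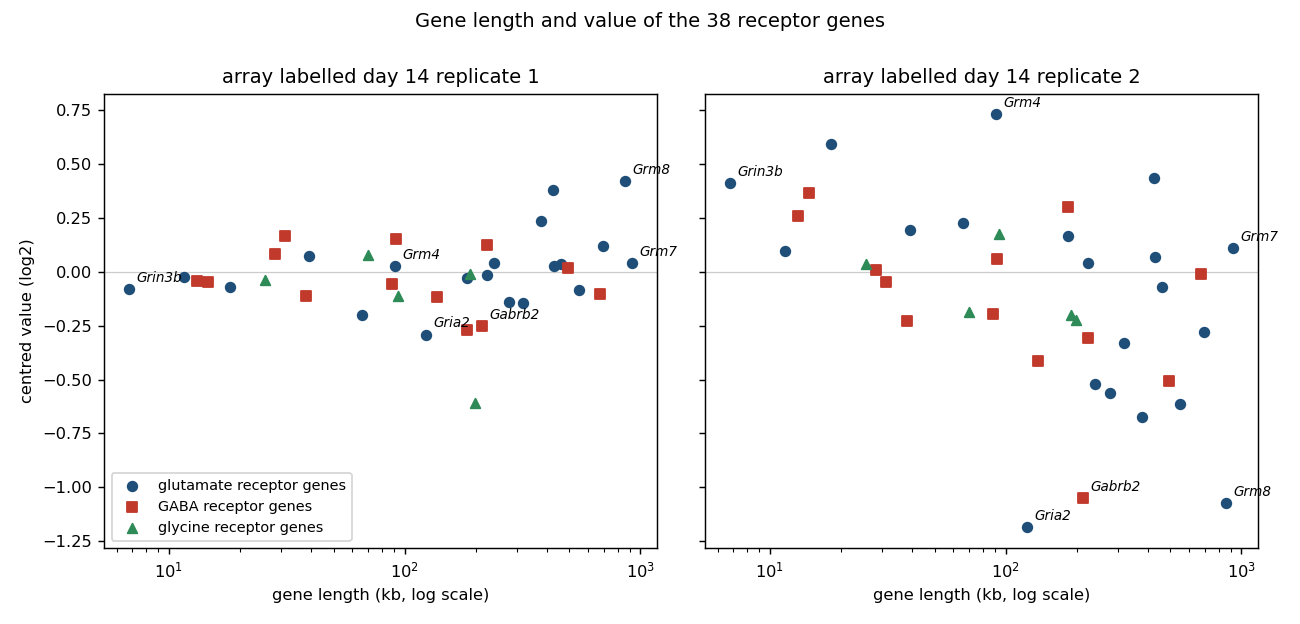
Gene length (kb, log scale, horizontal axis) and centred log2 value (vertical axis) of the 38 receptor genes on the first (left) and the second (right) day 14 array, with 1 point per gene and colour and marker by transmitter. On the second array the short genes *Grin3b* (0.41) and *Grin2c* (0.59, not labelled) stand above 0 and *Gria2* (-1.19), *Gabrb2* (-1.05) and *Grm8* (-1.07) far below, a spread that the first array does not have. Not all genes follow length. The long genes *Grm7* (921.9 kb, at 0.11) and *Grik4* (426.8 kb, at 0.44, not labelled) stand above 0. *Gria2* (122.8 kb) is shorter than the median receptor gene (183.9 kb).

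The proteins that release, clear and hold these transmitters and receptors gave the same count of 0 past adjusted p in limma at each time. Of 32 measured scaffold and auxiliary genes (35 listed), *Shank3*, a scaffold of glutamate synapses, and *Gabarap*, which carries GABA-A receptors, were higher at day 3 at an unadjusted p under 0.05, and *Nsf*, which recycles AMPA receptors, was lower. At this p 11% of all genes passed at day 3, 6.38% higher and 4.61% lower. *Shank3* stood at -0.14 and -0.16 in control and at 0.63 and 0.19 at day 3, a difference of 0.56 ± 0.16 (limma, adjusted p = 0.427). *Gabarap* stood at -0.08 and -0.15 in control and at 0.61 and 0.08 at day 3, a difference of 0.46 ± 0.18. *Nsf* stood at 0.10 and 0.37 in control and at -0.37 and -0.20 at day 3, a difference of -0.51 ± 0.19. The day 3 arrays of all 3, picked by their small p, had no overlap with control, as for 44.3% of all genes. *Cacng2*, the AMPA receptor partner stargazin, was below control on both arrays of day 14, at -0.27 and -0.17 against 0.01 and 0.09 (-0.27 ± 0.12).

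Of 17 measured genes of transmitter synthesis and transport (20 listed), 0 were past an unadjusted p of 0.05 at any time. The shares of all genes past it were 11%, 0.797% and 8.01% at day 3, day 7 and day 14. Of the 17 genes, 12 were lower than control at day 3 (median -0.09), 15 higher at day 7 (median 0.14) and 12 lower at day 14 (median -0.15), where 59.2%, 48.1% and 64% of all genes were higher. By array the list median was -0.02 on the first and -0.21 on the second day 3 array, 0.03 and -0.21 on those of day 14, -0.16 and 0.27 on those of day 7 and -0.04 and 0.10 in control. It thus lay outside control in the direction of these counts on the second array of each time only. The first day 7 array lay below control, against the count. Some single genes shifted on both arrays of a time. *Slc1a3*, the glutamate transporter of Muller cells, stood at 0.01 and 0.10 in control, -0.23 and -0.21 at day 3, 0.22 and 0.17 at day 7, with -0.11 and -0.47 at day 14. Its arrays were thus below control at day 3 and day 14 and above it at day 7, with -0.27, 0.14 and -0.35 (standard error 0.15). *Glul*, which turns glutamate into glutamine in Muller cells, followed the same order, with -0.62, 0.16 and -0.51 (standard error 0.32). It stood at 0.07 and 0.03 in control, at -0.20 and -0.94 on the day 3 arrays, at 0.16 and 0.25 on those of day 7 and at -0.03 and -0.89 on those of day 14, lowest on the second arrays of day 3 and day 14. *Slc17a7*, which loads glutamate into vesicles of photoreceptors and bipolar cells, was below control on both day 3 arrays, at -0.38 and -0.68 against 0.27 and 0.17 (-0.75 ± 0.35). *Slc6a13*, a GABA transporter, was above control on both day 14 arrays, at 0.79 and 0.66 against -0.30 and 0.03 (0.86 ± 0.41). Its highest value, 1.20, was on the second day 7 array, where the retinal pigment epithelium markers were highest too, and their part in it was not tested. All of these had an adjusted p of 0.427 or more in limma.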

How the data were processed

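Total retinal RNA was measured on 8 Affymetrix mouse genome arrays, and samples were grouped by the time on their labels. The authors used RMA to turn the scans into the deposited log2 values, per the submitters' processing notes. In RMA, background is removed, all arrays are given the same spread of intensities and the probes of a probe set are averaged robustly. Its version is not given in the sources used here. They are centred on each probe set's median over the arrays to within 1e-06, so no filter on signal was possible, and the number of arrays limits the precision. Control probe sets (64) were set aside, 932 probe sets that name several genes were not used, and 0 columns belonged to other samples.

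Gene means were fitted with limma 3.58.1 in R 4.3.3 (4 group means, lmFit and eBayes, prior degrees of freedom 3.12, residual 4), with a Benjamini-Hochberg adjustment over 18193 genes and a threshold of 0.05. Errors are standard errors from this fit. The pipeline was tested on simulated data with known changes. Values on each array are given for the genes past an unadjusted p of 0.05 against control and the 4 largest differences in each direction at each time (17 genes), with the 4 partner genes of each list that had the smallest F test p. The other 21 receptor genes are given by counts and ranges, and any single value of one of them was chosen after it was seen. The members, lists and tests were chosen with earlier results of these data known. The alternatives tried were array medians subtracted, a further quantile normalization, a replicate block, robust eBayes, a fit to only the groups compared, other probe set summaries, probe sets in place of genes, one-way analysis of variance, and leaving out each array, or the second arrays of day 3 and day 14 together. Sequences and gene lengths are from RefSeq (GRCm38.p6). The study's MAS5 values, quantitative PCR and tissue sections were not analysed here.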

Additional observations from a re-analysis of the deposited data

Results flagged for a closer look

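In 3 pairs of times a receptor gene had both arrays of one time above both control arrays and both arrays of the other time below them. The share of all genes that meet this rule was not counted. On one side of both control arrays lay 44.3%, 25.3% and 48.7% of all genes at day 3, day 7 and day 14. *Gabrg1* differed by -0.687 between day 7 and day 3 (limma, adjusted p = 0.285) and by 0.391 between day 14 and day 7 (adjusted p = 0.459). *Grik4* differed by 0.594 between day 14 and day 3 (adjusted p = 0.983). The differences share the control arrays that set their direction, and 0 of the 3 passed an adjusted p of 0.05.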

How the results depend on the processing

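The count of receptor genes past an adjusted p of 0.05 was 0 at day 3, day 7 and day 14 and in the F test under all 19 alternatives (the fit of the compared groups alone has no F test), with a lowest adjusted p of 0.077. Over the fits that left out each array in turn, the median difference of the receptor genes ranged from 0.033 to 0.20 at day 3 (0.20 without the second day 3 array), from -0.048 to 0.097 at day 7 (0.097 without the first day 7 array) and from -0.021 to 0.030 at day 14, and the day 3 value was 0.20 without the second arrays of day 3 and day 14 together. The cause was not tested. Of 450 named differences under alternatives, 441 kept their direction. A replicate block, a fit to only the groups compared, or leaving out an array of another time cannot change a difference. Part of the 441 was thus fixed in advance, and the named differences were mostly picked as the largest. The 9 that reversed all left out an array. Differences that were not named also reversed after a further quantile normalization, such as *Gria4* (-0.19 to 0.11) and *Grm8* (-0.36 to 0.03) at day 14. *Gria2* at day 3 ranged from -1.07 to 0.25, and was at 0.25 without the second day 3 array, alone or with that of day 14. At day 7, *Gria4* ranged from -0.10 to 0.95, *Gabra3* from -0.075 to 0.71 and *Glra2* from -0.067 to 0.66, each lowest without the second day 7 array. At day 14, *Grin2c* ranged from -0.050 to 0.61 and *Grin3b* from -0.012 to 0.48, each lowest without the second day 14 array, with the values of -0.050 and -0.012 also found without that array and the second day 3 array together. At an unadjusted p under 0.05 the count at day 3 was 3 (11% of all genes), 1 to 7 when single arrays were left out, 7 without the second day 3 array (19.8%), 1 without the first (6.79%) or the second control array (3.98%), 11 without both second arrays (21.1%) and 1 in the fit of the compared groups alone (8.58%). At day 14 it was 2 (8.01%), 0 without the second day 14 array (2.27%) or the first control array (4.58%), 7 without the first day 14 array (12%) and 4 after a further quantile normalization (12.2%), and at day 7 it was 0 (0.797%) and 2 without the first day 7 array (4.19%). The lowest adjusted p is that of *Gabrg1* at day 3 without the second day 3 array. A time left with a single array is taken to vary as the other times do.

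The replicate numbers were not taken as pairs, since the first arrays' deviations from their group means correlated from -0.30 to 0.46 between times. The study lists its arrays as 2 experiments, and whether the numbers mark these is not stated, so a pairing was neither shown nor excluded. Each time has an array of each replicate number, so a block on that number cannot change the median differences (0.08, -0.0038 and 0.03). With the block the count past an adjusted p stayed at 0 in all comparisons. At an unadjusted p under 0.05 it was 3 at day 3 (11.3% of all genes), 0 at day 7 (0.912%), 3 at day 14 (8.02%) and 4 in the F test (8.89%).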
